A study of Mus musculus with 12 samples.

Results

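The genes described here are 10 classical markers of macrophage polarization, 4 of the M1 state (Nos2, Il1b, Tnf and Il6) and 6 of the M2 state (Arg1, Mrc1, Cd163, Retnla, Chil3 and Tgm2), taken by symbol from a table of 55401 Ensembl genes. All 10 were present and all 10 passed the filter on low counts, which kept 20818 genes for testing. They were measured by poly(A) RNA-seq in 12 subcutaneous tumors of the Ras-driven mouse prostate cancer (PCa) cell line TC2Ras, collected at day 21 from 4 groups of 3. Control tumors were grown from 125000 TC2Ras cells in mice drinking water with 0 ppb inorganic arsenic (iAs), and ASC tumors from TC2Ras cells mixed with 1% ASC-GFP at 0 ppb. As300 tumors were grown from TC2Ras cells alone at 300 ppb iAs, and ASC_As300 tumors had both the 1% ASC-GFP and the 300 ppb iAs. All mice had first been kept on low-arsenic AIN-76A chow and Milli-Q water, and each library combined the left and right flank tumors of a mouse. ASC-GFP are primary adipose-derived stromal cells from male C57BL/6 mice carrying a GFP transgene, and TC2Ras is a single cell line. Neither the strain nor the age of the tumor-bearing mice was given in the sources used here. The sample labels name stromal cells as the cell type, whereas the protocols describe tumors, and the libraries held macrophage, fibroblast, endothelial and epithelial transcripts as tumor tissue does.

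Macrophages are tissue phagocytes that take on different states with the signals they receive. Interferon gamma and bacterial products, acting in part through NF-kB, drive the M1 state, in which cells make nitric oxide with Nos2 and release the cytokines IL-1 beta, TNF and IL-6. Interleukin 4 and interleukin 13, acting through STAT6, drive the M2 state, in which arginase 1 competes with Nos2 for arginine and scavenger receptors and secreted lectins appear. Tumor macrophages often carry markers of both states at once, and several of these genes are also used by other cells. Tgm2 is made by endothelial cells and fibroblasts, Il6 by fibroblasts, and Retnla by adipose tissue.

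The totals ran from 39157647 counts, in ASC replicate 2, to 55168642 counts per tumor, and values are given as CPM, counts scaled to a common library size with TMM factors. CT010467.1 was the most abundant gene in every tumor. It held 11.4% of the counts in ASC replicate 2 and 10.8% in As300 replicate 1, against 3.23% to 6.77% in the others. Its part in the values of these tumors was not tested. Control replicate 1 stood apart, at -101.8 on the first principal component, with B and plasma cell markers summing to 171 CPM against 2.05 to 11.1 CPM in the other 11 tumors. Skeletal muscle markers summed to 1461 CPM in Control replicate 2 and 1478 CPM in As300 replicate 1, against 1.26 to 295 CPM in the other tumors. All 14 macrophage markers were detected in all 12 tumors. Summed, they came to 1650 to 2046 CPM in the Control tumors and 2104 to 3025 CPM with ASC, and to 2089 to 2182 CPM in As300 and 2384 to 2847 CPM in ASC_As300. The 10 neutrophil markers summed to only 22.8 to 54.8 CPM in any tumor. In bulk tumor RNA, more or fewer cells of a type and more or less RNA per cell cannot be told apart.

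The promoters of 4 genes are shown, those of the 3 cytokine genes Tnf, Il1b and Il6 and of Retnla, the gene with the widest range of levels, so that the elements found in them can be compared. They are the 250 bases before the annotated start from RefSeq (build GRCm38.p6), in which 7 of the 10 genes had an entry, and capitals mark the motif matches. The Tnf window is chr17:35202008-35202257 on the minus strand, Il1b is chr2:129371140-129371389 on the minus strand, Il6 is chr5:30012864-30013113 on the plus strand, and Retnla is chr16:48842359-48842608 on the plus strand.
Tnf: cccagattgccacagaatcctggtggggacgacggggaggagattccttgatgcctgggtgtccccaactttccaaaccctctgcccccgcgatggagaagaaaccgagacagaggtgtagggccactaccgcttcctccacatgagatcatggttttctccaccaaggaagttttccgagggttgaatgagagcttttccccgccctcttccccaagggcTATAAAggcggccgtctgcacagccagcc
Il1b: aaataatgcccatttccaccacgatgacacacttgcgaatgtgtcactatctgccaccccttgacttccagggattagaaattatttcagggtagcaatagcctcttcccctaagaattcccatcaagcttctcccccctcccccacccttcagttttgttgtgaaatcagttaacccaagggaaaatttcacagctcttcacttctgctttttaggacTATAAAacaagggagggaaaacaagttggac
Il6: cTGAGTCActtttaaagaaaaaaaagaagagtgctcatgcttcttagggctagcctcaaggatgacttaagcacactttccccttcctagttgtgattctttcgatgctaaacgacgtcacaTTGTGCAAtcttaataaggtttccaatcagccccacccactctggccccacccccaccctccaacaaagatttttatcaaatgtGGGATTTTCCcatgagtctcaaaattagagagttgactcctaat
Retnla: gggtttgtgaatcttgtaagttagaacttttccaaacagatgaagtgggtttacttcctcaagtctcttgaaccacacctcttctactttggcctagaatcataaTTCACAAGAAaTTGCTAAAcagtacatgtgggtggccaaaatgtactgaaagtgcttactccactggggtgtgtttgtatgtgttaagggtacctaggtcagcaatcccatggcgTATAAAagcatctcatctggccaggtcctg
Tnf, Il1b and Retnla each held a TATA box (TATAAA, plus strand only) starting at -29, -31 and -30. The Il6 window held an AP-1 site (TGAGTCA) at -249, a C/EBP site (TTGCNNAA) at -128 on the minus strand and an NF-kB site at -44. The Retnla window held a STAT6-type palindrome (TTC and GAA with 4 bases between) at -145, followed by a C/EBP site at -134. Among the windows not shown, Chil3 held an interferon-type GAS palindrome (TTCNNNGAA) at -172, and Mrc1 and Cd163 held no match. Both strands were searched except for the TATA box, and none of the matches overlapped another. Over all 32851 windows the share with a match was 7.59% for TATA, 7.02% for GAS, 5.85% for the STAT6 type, 3.9% for NF-kB, 4.46% for AP-1 and 9.56% for C/EBP. In the Tnf and Il1b windows the TATA box was the only match. A match describes the letters only.

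Levels were first compared between genes per exon length. Arg1, Tgm2 and Mrc1, all M2 genes, were the most abundant, with medians of 22.7, 18.7 and 17.9 CPM per kb over the 12 tumors. Their ranges of 13.7 to 31.6, 11.1 to 27.2 and 11.4 to 29.4 CPM per kb overlapped, so that the order among them is not resolved. Retnla and Il1b followed with medians of 5.97 and 5.78 CPM per kb. Nos2, Tnf, Cd163 and Chil3 lay between 1.12 and 1.63 CPM per kb, and Il6 was lowest at 0.290 CPM per kb with 11 to 63 counts per tumor. The highest tumor exceeded the lowest by a ratio of 2.31 for Arg1, 2.45 for Tgm2 and 2.58 for Mrc1, but by 18.9 for Retnla and 9.39 for Cd163 of the M2 genes and by 8.12 for Il6 and 7.78 for Tnf of the M1 genes. Wide and narrow ranges thus occurred in genes of the M2 set, and those of the other genes lay at 2.99 for Il1b, 5.50 for Nos2 and 5.21 for Chil3.

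**Figure D1:**
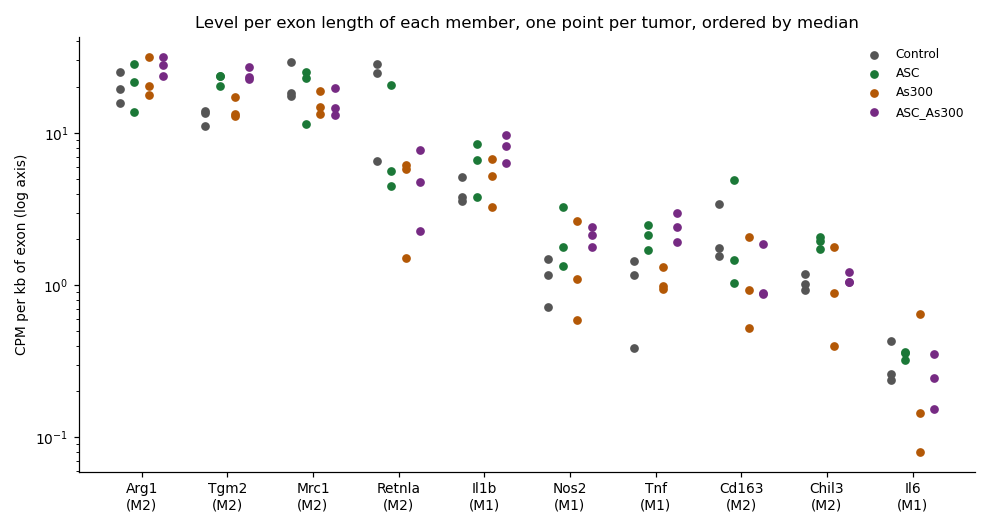
CPM per kb of exon on a log axis for each of the 10 genes, ordered by median, with 1 point per tumor and color giving the group. Arg1, Tgm2 and Mrc1 lie highest and overlap, Il6 lies lowest, and Retnla spans 1.5 to 28.4 CPM per kb.

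To ask how ASC alone altered the markers, ASC tumors were set against Control. Of the 10 genes, 1 was called, Tgm2, where called means at least a 1.5-fold change with a p under 0.05 in edgeR's quasi-likelihood test after Benjamini-Hochberg adjustment, and 0.721% of all genes tested were called. A further gene, Tnf, had an unadjusted p under 0.05, making 2 of 10 beside 15.4% of all genes. In 3 of 10 genes (Tnf, Chil3 and Tgm2) the ASC and Control tumors did not overlap, beside 19% of all genes. The 4 M1 genes were all higher on average, with a median log2 fold change of 0.76, and the 6 M2 genes had a median of 0.11, beside a median near 0 (-0.0044) over all genes tested.

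In As300 against Control, which asks the same of iAs alone, none of the 10 genes was called by edgeR, beside 1.06% of all genes. DESeq2 called none of the 10 either, beside 2.41% of the 33928 genes with any count, which it took without the edgeR filter. By its default settings DESeq2 can leave low-count or outlier genes without an adjusted p, and such genes counted as not called. The number that edgeR called over all genes varied widely when 1 tumor was left out, also a tumor of a group not compared. Of all genes 220 were called, but 0 without any one of the 3 Control tumors or without ASC_As300 replicate 1 or 3, 1 without As300 replicate 2, 2 without As300 replicate 3, 122 without As300 replicate 1 and as many as 399 without ASC replicate 3. Retnla alone had an unadjusted p under 0.05, 1 of 10 beside 24.1% of all genes, and it alone had groups that did not overlap, beside 29.9%. The M1 genes had a median log2 fold change of 0.20 and the M2 genes of -0.25.

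In ASC_As300 against Control, 1 of 10 genes was called, again Tgm2, beside 0.807% of all genes. Il1b, Tnf and Tgm2 were higher and Retnla lower at an unadjusted p under 0.05, 4 of 10 beside 15.2% of all genes. Groups did not overlap for Nos2, Il1b, Tnf and Tgm2, 4 of 10 beside 25.6% of all genes. The M1 genes had a median log2 fold change of 0.93 and the M2 genes of -0.19. These 3 comparisons share the 3 Control tumors, so that a level high or low in Control enters all of them.

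**Figure D2:**
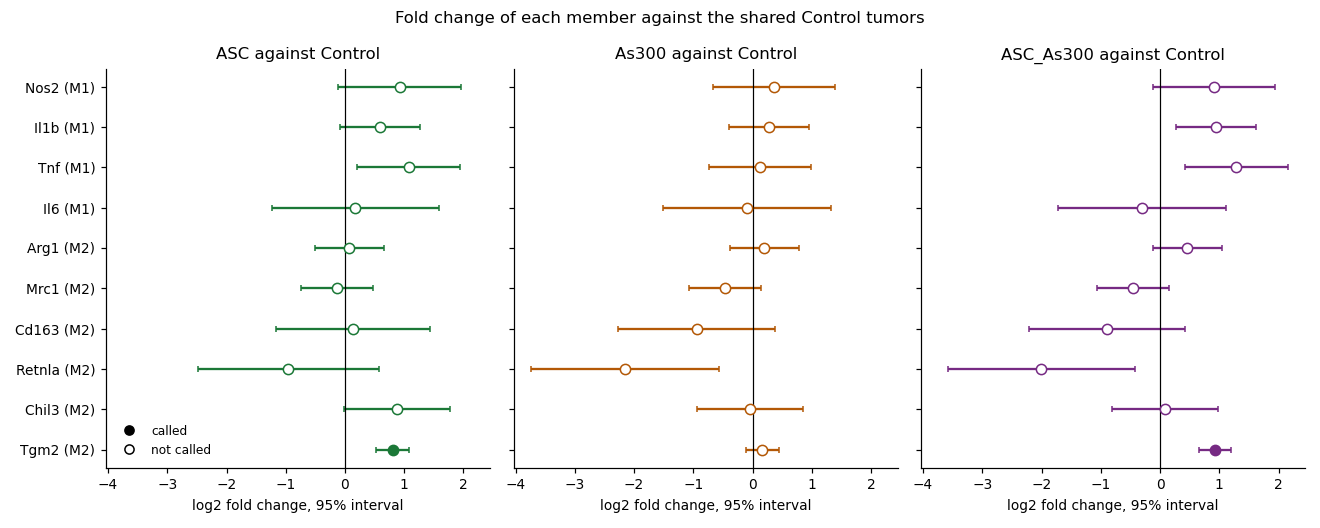
Log2 fold change (x axis) of each gene in ASC, As300 and ASC_As300 against the same 3 Control tumors, with 95% intervals from the edgeR fit. Filled points are called, which is Tgm2 in ASC and in ASC_As300, and Retnla has the lowest estimates in As300 and ASC_As300.

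The other comparisons used the remaining pairs and the factors. In ASC_As300 against As300, which asks for the ASC difference under iAs, Tgm2 was the 1 gene called beside 0.855% of all genes, and 3 of 10 (Il1b, Tnf and Tgm2) had an unadjusted p under 0.05 beside 9.98%. For the ASC effect averaged over both iAs levels, Tgm2 was the 1 gene called beside 1.45%, and 4 of 10 (Nos2, Il1b, Tnf and Tgm2, all higher) had an unadjusted p under 0.05 beside 10.9%. Tnf and Tgm2 were the 2 genes for which all 6 tumors with ASC exceeded all 6 without, beside 1.89% of all genes. In ASC_As300 against ASC, edgeR called none of the 10 genes (0% of all genes) and none had an unadjusted p under 0.05, beside 3.21%. For the iAs effect over both ASC levels edgeR called none (0% of all genes), and Cd163 and Retnla, both lower, had an unadjusted p under 0.05, 2 of 10 beside 16%. For the ASC by iAs interaction edgeR called none of the 10 (0% of all genes) and none had an unadjusted p under 0.05, beside 13.6% of all genes. DESeq2 called none of the 10 genes in these 3 comparisons either, and 11, 114 and 174 of its 33928 genes.

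**Figure D3:**
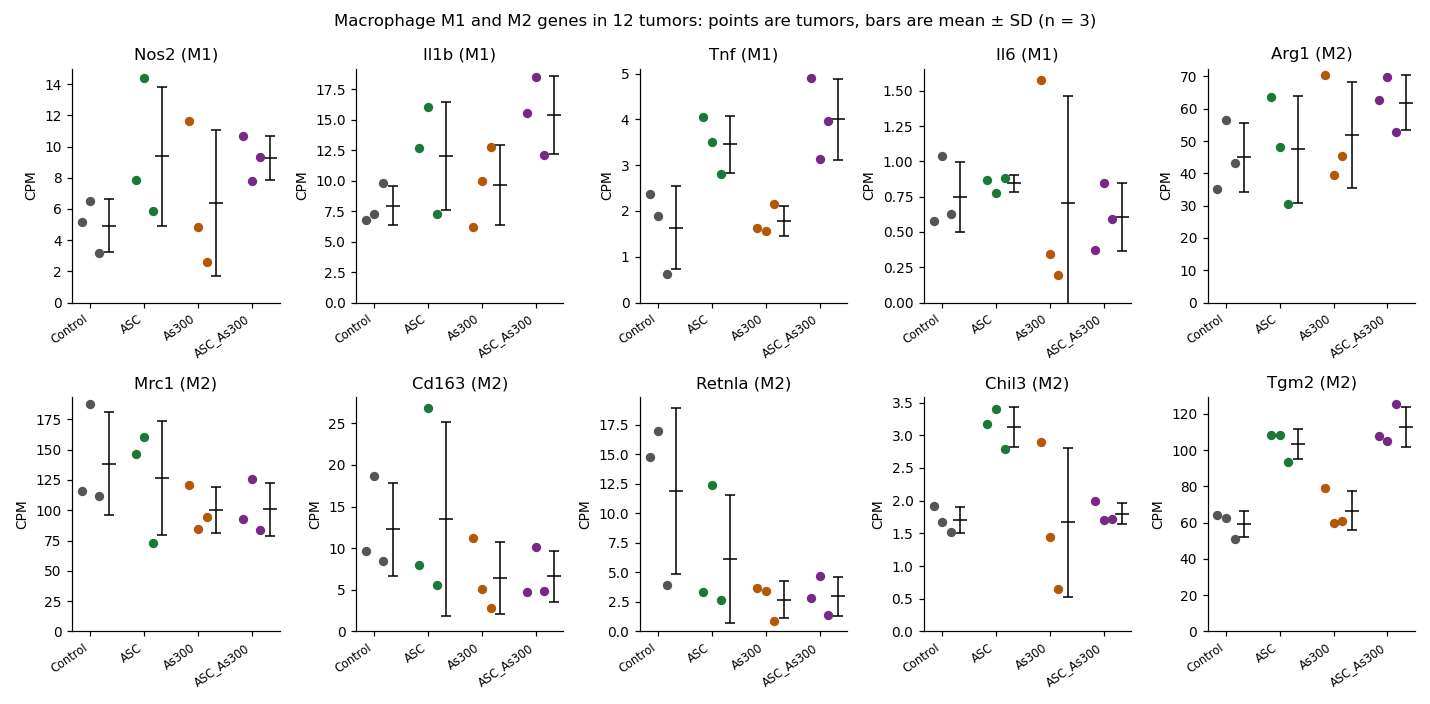
CPM of each gene in each tumor (y axis, from 0) by group, with the mean and SD of 3 tumors beside the points. Tgm2 is at 93.7 CPM or above in every tumor with ASC and at 79.0 CPM or below in every tumor without, and Tnf is likewise separated at lower levels.

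Tgm2 encodes tissue transglutaminase, an enzyme that cross-links proteins and is a marker of M2 macrophages in mouse and human. It was at 64.3, 62.4 and 51.2 CPM in the Control tumors, 108, 108 and 93.7 in ASC, 79.0, 59.8 and 61.0 in As300, and 108, 105 and 125 in ASC_As300. Every tumor with ASC lay above every tumor without, while Control and As300 overlapped, as did ASC and ASC_As300. Group means were 59.3 ± 7.06, 103.5 ± 8.48, 66.6 ± 10.7 and 112.7 ± 11.1 CPM (SD, n = 3). The log2 fold change was 0.80 (SE 0.13, edgeR adjusted p = 0.00813) in ASC and 0.93 (adjusted p = 0.00298) in ASC_As300 against Control. It was 0.76 (adjusted p = 0.0115) in ASC_As300 against As300 and 0.78 (SE 0.09, adjusted p = 0.000285) for the ASC effect, a 1.72-fold difference. In As300 against Control it was 0.17 with a 95% interval of -0.11 to 0.44, and the interaction was -0.04 (-0.43 to 0.34). Of the 14 macrophage markers, 5 were called higher in ASC and 5 in ASC_As300 against Control. With the mean log2 CPM of these markers in the model, Tgm2 stayed higher by 0.60 in ASC and 0.73 in ASC_As300 and was not called (adjusted p = 0.231 and 0.111), and since this score itself differed between tumors with and without ASC, its part in the result cannot be told apart. The 5 endothelial markers summed to 137 to 233 CPM and the 8 fibroblast markers to 3643 to 6119 CPM over the 12 tumors, with ranges that overlapped between groups with and without ASC. Neither list had a call in ASC or ASC_As300 against Control. All 5 endothelial markers were higher on average in ASC, and 1 higher and 4 lower in ASC_As300. Of the 8 fibroblast markers, 3 were higher and 5 lower in each of the 2 comparisons. Other markers separated by ASC in the way Tgm2 did. The 5 epithelial tumor cell markers, none at 0 in any tumor, summed to 29.8 to 48.6 CPM in ASC and 26.9 to 36.7 in ASC_As300, below the 65.7 to 362 in Control and 96.4 to 119 in As300. Among them Krt8, a keratin of simple epithelia, was called lower for the ASC effect (-2.03, edgeR adjusted p = 0.00632). The 7 T cell markers summed to 36.7 CPM or more in every tumor with ASC and to 15.0 CPM or less in every tumor without, except Control replicate 1 at 66.7 CPM. The part of the endothelial, fibroblast, epithelial and T cell markers in the Tgm2 values was not tested. Without As300 replicate 2, As300 replicate 3 or ASC_As300 replicate 3 the call against As300 was lost, at adjusted p = 0.0732, 0.0691 and 0.0684.

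Tnf encodes the cytokine tumor necrosis factor, released by activated macrophages. It was at 2.38, 1.90 and 0.629 CPM in Control, 4.05, 3.51 and 2.80 in ASC, 1.63, 1.55 and 2.15 in As300, and 4.89, 3.14 and 3.96 in ASC_As300, from 29 to 263 counts. As for Tgm2, the 6 tumors with ASC were all above the 6 without. The estimated log2 fold change was 1.08 (SE 0.40, edgeR adjusted p = 0.230) in ASC, 1.29 (adjusted p = 0.171) in ASC_As300 and 0.12 (adjusted p = 0.899) in As300 against Control. For the ASC effect it was 1.12 (SE 0.28, 95% interval 0.51 to 1.73, unadjusted p = 0.00173), which missed the threshold at an adjusted p of 0.0765. Leaving out Control replicate 1 brought it to an adjusted p of 0.0289, and leaving out Control replicate 3 to one of 0.0468. DESeq2 called Tnf for the ASC effect (1.11, adjusted p = 0.00397) and in ASC_As300 against Control (1.28, adjusted p = 0.0287). With the macrophage marker score in the model the ASC effect was 0.42. That score was higher in every tumor with ASC than in any without, so its part cannot be told apart, as for Tgm2. Tnf is also made by T cells, whose 7 markers, none at 0 in any tumor, summed to 45.8 to 61.7 CPM in ASC and 36.7 to 62.1 in ASC_As300. In Control they summed to 66.7, 13.4 and 11.6 CPM and in As300 to 10.4 to 15.0 CPM, and their part in the Tnf values was not tested.

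Il1b encodes IL-1 beta, which is made as a precursor and cut by caspase-1. It was at 6.78, 7.27 and 9.81 CPM in Control, 12.7, 16.1 and 7.27 in ASC, 6.18, 9.96 and 12.8 in As300, and 15.5, 18.5 and 12.1 in ASC_As300. ASC_As300 lay above Control in all 3 tumors, and ASC replicate 3 was level with Control. The log2 fold change was 0.95 (SE 0.31, adjusted p = 0.191) in ASC_As300, 0.59 (adjusted p = 0.389) in ASC and 0.28 (adjusted p = 0.648) in As300 against Control. The ASC effect was 0.63 (SE 0.22, unadjusted p = 0.013, adjusted p = 0.258), and ASC_As300 against As300 gave 0.67 (unadjusted p = 0.0494). DESeq2 called Il1b in ASC_As300 against Control (0.95, adjusted p = 0.0327), and with the macrophage marker score in the model the ASC effect was 0.12. Here too the part of the score and that of ASC cannot be told apart.

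Nos2, the inducible nitric oxide synthase, was at 5.15, 6.52 and 3.15 CPM in Control, 7.85, 14.4 and 5.90 in ASC, 11.6, 4.87 and 2.61 in As300, and 10.6, 7.82 and 9.36 in ASC_As300. The As300 tumors spanned nearly the whole range of the other groups. Against Control the log2 fold change was 0.92 (SE 0.48, adjusted p = 0.385) in ASC, 0.91 (adjusted p = 0.394) in ASC_As300 and 0.36 (adjusted p = 0.715) in As300. Without As300 replicate 1, 1 of the tumors with high skeletal muscle markers, the As300 estimate was -0.40. The ASC effect was 0.73 (SE 0.34, unadjusted p = 0.0486, adjusted p = 0.454), and -0.13 (SE 0.57) with the macrophage marker score in the model. Since every tumor with ASC scored above every tumor without, the part of the score cannot be told apart from that of ASC.

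Il6, the fourth M1 marker, was at 0.579, 1.04 and 0.629 CPM in Control, 0.870, 0.777 and 0.886 in ASC, 1.58, 0.348 and 0.194 in As300, and 0.372, 0.849 and 0.593 in ASC_As300. All 4 groups overlapped, and As300 replicate 1 was the highest and As300 replicate 3 the lowest of the 12 tumors. Against Control the estimated change was 0.17 on the log2 scale (95% interval -1.24 to 1.59, adjusted p = 0.936) in ASC, -0.10 (-1.52 to 1.32, adjusted p = 0.950) in As300 and -0.31 (-1.73 to 1.11, adjusted p = 0.876) in ASC_As300. Without As300 replicate 1 the As300 estimate was -1.46. A change of 2-fold in either direction lies inside each of the 3 intervals.

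Among the M2 genes, Retnla, which encodes the secreted resistin-like alpha (Fizz1), had the lowest fold changes. It was at 14.8, 17 and 3.91 CPM in Control, 3.36, 12.4 and 2.70 in ASC, 3.70, 3.45 and 0.900 in As300, and 2.87, 4.66 and 1.36 in ASC_As300. Control replicates 1 and 2 and ASC replicate 2 were the 3 high tumors, and the others lay at 4.66 CPM or below. Every As300 tumor lay below every Control tumor, although by a narrow margin under Control replicate 3. The log2 fold change was -2.15 (SE 0.73, 95% interval -3.74 to -0.56, unadjusted p = 0.0119, adjusted p = 0.101) in As300 and -2.003 (SE 0.73, adjusted p = 0.229) in ASC_As300 against Control. In ASC it was -0.96 (adjusted p = 0.561), or -1.97 without ASC replicate 2, and the iAs effect was -1.60 (SE 0.51, unadjusted p = 0.00821, adjusted p = 0.194), so that no comparison passed the threshold. With the macrophage marker score in the model the estimate was -2.36 in As300 (adjusted p = 0.0357, called), -3.29 in ASC (adjusted p = 0.161) and -4.14 in ASC_As300 (adjusted p = 0.0612). In ASC and ASC_As300 the part of the score cannot be told apart from that of ASC. The 5 adipocyte markers (Adipoq, Plin1, Fabp4, Lep and Cidec) together ranged between 128 and 269 CPM in Control, between 42.3 and 508 in ASC, between 44.8 and 68.7 in As300 and between 31.0 and 56.5 in ASC_As300, and the sum was highest in ASC replicate 2. Only Lep was ever at 0, in 1 ASC_As300 tumor. All 5 were lower in As300 and in ASC_As300 than in Control without a call, and their part in the Retnla values was not tested. The related gene Retn, the adipocyte hormone resistin, had a log2 fold change of -2.42 in As300 (unadjusted p = 0.0912) and -3.28 in ASC_As300 (unadjusted p = 0.0346), with adjusted p = 0.291 in both. The paralogs Retnlb and Retnlg had at most 3 and 57 counts per tumor, and reads shared with them cannot be separated here.

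Cd163, the haemoglobin-haptoglobin scavenger receptor, was at 9.63, 18.6 and 8.48 CPM in Control, 7.96, 26.9 and 5.64 in ASC, 11.3, 5.09 and 2.86 in As300, and 4.78, 10.2 and 4.87 in ASC_As300. Control replicate 2 and ASC replicate 2 were the highest, and all groups overlapped. Against Control the log2 fold change was 0.14 (SE 0.60, adjusted p = 0.946) in ASC, -0.94 (SE 0.61, adjusted p = 0.382) in As300 and -0.89 (SE 0.61, adjusted p = 0.514) in ASC_As300. The iAs effect was -0.98 (SE 0.43, unadjusted p = 0.0406, adjusted p = 0.294), and -0.49 without ASC replicate 2.

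Mrc1, the mannose receptor CD206, was at 116, 187 and 112 CPM in Control, 147, 161 and 72.6 in ASC, 121, 84.4 and 94.7 in As300, and 92.9, 126 and 84.0 in ASC_As300. The groups overlapped throughout. Log2 fold changes against Control were -0.13 (adjusted p = 0.877) in ASC, -0.47 (95% interval -1.08 to 0.14, adjusted p = 0.343) in As300 and -0.46 (-1.07 to 0.15, adjusted p = 0.467) in ASC_As300.

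Arg1, arginase 1, was at 35.3, 56.4 and 43.3 CPM in Control, 63.5, 48.2 and 30.5 in ASC, 70.4, 39.5 and 45.5 in As300, and 62.8, 69.9 and 52.9 in ASC_As300. All pairs of groups overlapped. The log2 fold change against Control was 0.07 (95% interval -0.50 to 0.65, adjusted p = 0.932) in ASC, 0.20 (-0.38 to 0.78, adjusted p = 0.719) in As300 and 0.46 (-0.12 to 1.04, adjusted p = 0.440) in ASC_As300. Arg2, the mitochondrial isoform of the enzyme, averaged 0.310 to 0.622 CPM over the groups.

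Chil3, the chitinase-like lectin Ym1, was at 1.92, 1.67 and 1.52 CPM in Control, 3.18, 3.40 and 2.80 in ASC, 2.90, 1.45 and 0.653 in As300, and 1.99, 1.70 and 1.72 in ASC_As300. The 3 ASC tumors lay above all Control and all ASC_As300 tumors, whereas As300 ranged across the other groups. In ASC it differed by 0.87 on the log2 scale from Control (SE 0.41, 95% interval -0.02 to 1.77, adjusted p = 0.335). It was -0.04 (adjusted p = 0.973) in As300 and 0.08 (adjusted p = 0.953) in ASC_As300 against Control, and ASC_As300 against ASC gave -0.79 (unadjusted p = 0.0770, adjusted p = 1). Its near-identical neighbour Chil4 had at most 1 count in any tumor.

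The 2 sets were also summarized per tumor, as a description without a test. The M1 mean minus the M2 mean of log2 CPM was -2.99 ± 0.08 in Control, -2.34 ± 0.25 in ASC, -2.37 ± 0.21 in As300 and -1.95 ± 0.23 in ASC_As300 (SD, n = 3). All Control tumors, at -3.07 to -2.92, were below all 9 others, at -2.63 to -1.74. Each gene had equal weight in the means, so that Retnla, with a highest over lowest ratio of 18.9, weighed heavily on the M2 mean. How far the separation of the Control tumors rests on Retnla was not tested. In ASC the M1 mean was higher than in Control (2.07 ± 0.33 against 1.35 ± 0.36) at a like M2 mean (4.41 ± 0.56 against 4.34 ± 0.40). In As300 the M1 mean was 1.39 ± 0.46 and the M2 mean 3.76 ± 0.62. In ASC_As300 the M1 mean was 2.11 ± 0.06 and the M2 mean 4.06 ± 0.29. The macrophage marker score was 6.33 ± 0.18, 6.78 ± 0.24, 6.43 ± 0.02 and 6.77 ± 0.09 in the same order of groups. Among the M2 genes in As300, Retnla (-2.15) and Cd163 (-0.94) had the lowest log2 fold changes, neither of them called. Retnla made up 8.43% ± 4.65 of the Mrc1 CPM in Control, 4.57% ± 2.79 in ASC, 2.70% ± 1.60 in As300 and 2.81% ± 1.07 in ASC_As300. Control replicate 3, at 3.49%, lay below As300 replicate 2, at 4.09%, so that even these groups overlapped.

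**Figure D4:**
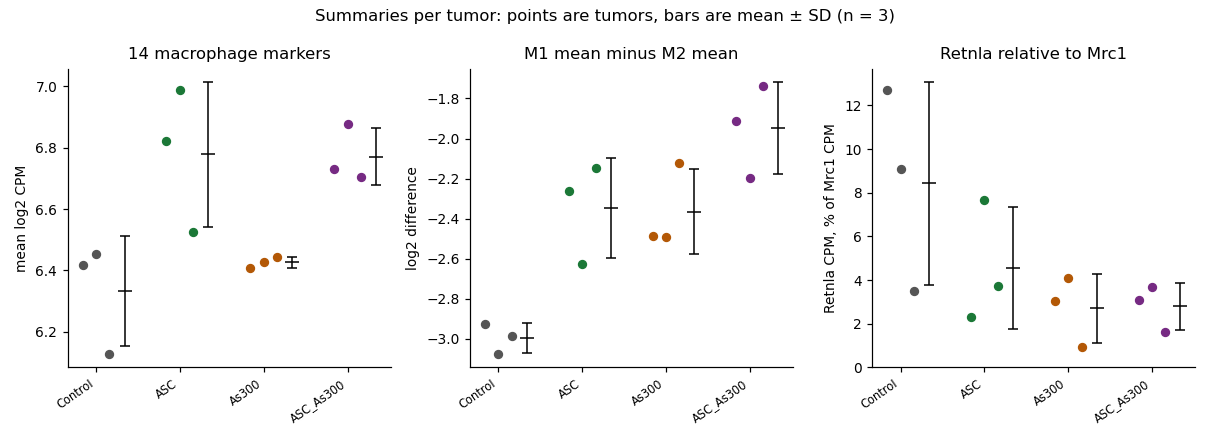
Per tumor, the mean log2 CPM of 14 macrophage markers, the M1 minus M2 difference of mean log2 CPM, and Retnla as a percentage of Mrc1 CPM, with mean and SD of 3 tumors per group. The marker score is 6.52 to 6.99 in tumors with ASC and 6.13 to 6.45 without, and the M1 minus M2 difference is lowest in Control.

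The genes around the 10 markers were described by list. Of 20 other M1 genes, 19 were tested, with 3 called higher in ASC against Control, none in As300, and 5 in ASC_As300, and none was called lower. Cxcl9 and Cxcl10, interferon-induced chemokines that draw T cells, and Fcgr1, the high-affinity IgG receptor, were the 3 in ASC. Cxcl9 averaged 16.9 CPM in Control, 149 in ASC, 14.5 in As300 and 173 in ASC_As300, a log2 fold change of 3.14 in ASC (adjusted p = 0.00305) and 3.36 in ASC_As300 (adjusted p = 0.00195). For Cxcl10 the log2 fold changes were 2.04 and 1.97, and for Fcgr1 1.07 and 0.98. Acod1, which makes itaconate in activated macrophages, and Irf5, a transcription factor of the M1 program, were called in ASC_As300, at 3.26 (adjusted p = 0.0334) and 0.72 (adjusted p = 0.0290). In As300 the 2 smallest p-values were those of Gpr18 at -1.91 and Marco at -1.92 (adjusted p = 0.0768 and 0.168). The list's median log2 fold change was 0.54 in ASC, -0.32 in As300 and 0.24 in ASC_As300.

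All 20 other M2 genes were tested, and in the same 3 comparisons none, none and 1 was called. That 1 was Clec7a, the beta-glucan receptor dectin-1, at 1.01 in ASC_As300 (adjusted p = 0.0278), where it averaged 23.8 CPM against 11.8 in Control. In ASC, Ccl8, a monocyte chemokine, and Clec7a had the smallest p-values at 1.51 and 0.70 (adjusted p = 0.129 and 0.134). In As300, Lyve1, a hyaluronan receptor, and Pparg had the smallest at -1.47 and -0.85 (adjusted p = 0.141 and 0.176). The list's median was 0.20, -0.29 and -0.21. Clec7a (0.92, adjusted p = 0.00249) and Ccl8 (1.53, adjusted p = 0.0140) were called for the ASC effect, and Fpr2, Irf5 and Acod1 joined the 3 M1 genes there at 1.56, 0.60 and 2.71.

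Of the signals that induce the M1 state, all 14 were tested. Irf1, a transcription factor of the interferon gamma response, was called higher in ASC at 1.49 (adjusted p = 0.000167) and again in ASC_As300 at 1.58. Ifng itself averaged 0.140 CPM in Control, 2.09 in ASC, 0.235 in As300 and 2.53 in ASC_As300, with at most 12 counts per Control tumor, and it was called in ASC_As300. T cells and NK cells are its main source, and the part of the T cell markers given above in these values was not tested. In As300 no inducer was called, and Rela and Jak1 had the smallest p-values at 0.33 and -0.37 (adjusted p = 0.0659 and 0.0775).

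Of 11 M2 inducers and their receptors, 10 were tested, and Il13 had no count in any tumor. Il4 averaged 0.849 to 0.996 CPM over the groups, and the shared receptor chain Il4ra did not reach a call, at 0.38 in ASC (adjusted p = 0.216) and 0.29 in ASC_As300 (adjusted p = 0.338). Il1rl1, the receptor of IL-33, was called higher in ASC at 0.90 (adjusted p = 0.0145), with 35.5 ± 1.68 CPM against 19.0 ± 3.40 in Control and 23.8 ± 3.06 in ASC_As300. Il13ra2, a decoy receptor of IL-13, had the smallest p-value in As300 (adjusted p = 0.0519), with at most 4 counts in an As300 tumor and 30 in a Control tumor.

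Of 10 genes of arginine handling, 5 were higher and 5 lower on average in ASC, and none was called in ASC, As300 or ASC_As300 against Control. Ass1, which rebuilds arginine from citrulline, was at 1.08 (adjusted p = 0.0902), 0.49 (adjusted p = 0.276) and 0.73 (adjusted p = 0.219), and Slc7a2, the arginine carrier of activated macrophages, was at -0.84 in ASC (adjusted p = 0.195) and -0.69 in ASC_As300 (adjusted p = 0.280). Of 13 genes of cytokine receptors and processing, none was called in the 3 comparisons against Control. Socs3, a feedback inhibitor induced by IL-6 family cytokines, was at 0.37 in ASC (adjusted p = 0.0505) and at 0.48 in ASC_As300, where the adjusted p was 0.00934 but the change was under 1.5-fold. Tnfrsf1b, the second TNF receptor, was at 0.45 in ASC_As300 (adjusted p = 0.0850). In As300, Adam17, the protease that releases TNF from the membrane, and Il6st had the smallest p-values at -0.35 and -0.36 (adjusted p = 0.116 and 0.118). Casp1, the enzyme that cuts IL-1 beta, was called for the ASC effect at 0.96 (adjusted p = 0.00633) and in ASC_As300 against As300 at 1.17 (adjusted p = 0.0340).

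Among the 14 macrophage markers, the 5 called higher in ASC were C1qa, C1qb and C1qc, the chains of complement C1q, with Aif1 and Mpeg1. In ASC 13 of the 14 were higher than in Control and 1, Mertk, was lower. Mertk had an unadjusted p under 0.05 in edgeR's test and was not called. It averaged 28.4 ± 3.63 CPM in Control, 22.2 ± 4.63 in ASC, 20.8 ± 2.10 in As300 and 23.3 ± 1.20 in ASC_As300. C1qa was at 0.81 in ASC (adjusted p = 0.00221), 0.76 in ASC_As300 (adjusted p = 0.00362) and 0.47 in As300, where its adjusted p of 0.0450 came with a change under 1.5-fold. Of 6 monocyte markers, Cd14, the lipopolysaccharide co-receptor, was the 1 called in As300 (0.59, adjusted p = 0.0404), at 40.0 ± 0.418 CPM against 26.6 ± 3.87 in Control. That call was lost without any one of the Control tumors, and also without ASC_As300 replicate 1 or 3, tumors outside the comparison. Adgre1, which encodes F4/80, was at 0.55 in ASC (adjusted p = 0.217), 0.10 in As300 and 0.52 in ASC_As300 (adjusted p = 0.248). The list's median log2 fold change was 0.50, 0.06 and 0.47 in ASC, As300 and ASC_As300, beside 0.80, 0.17 and 0.93 for Tgm2 in the same comparisons.

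**Figure D5:**
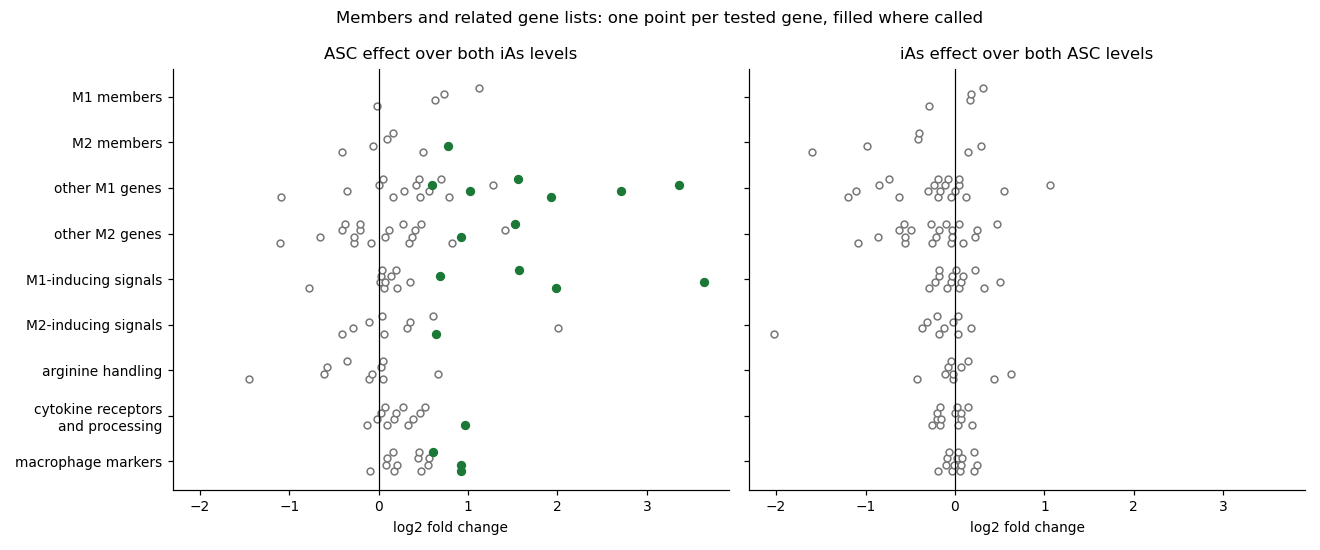
Log2 fold change (x axis) of every tested gene of the 2 marker sets and 7 of the other lists for the ASC effect over both iAs levels and the iAs effect over both ASC levels, filled where called. Of the genes plotted, calls fall only in the ASC panel, where 6 other M1 genes, 4 M1 inducers, 3 macrophage markers, 2 other M2 genes, Tgm2, Il1rl1 and Casp1 are filled, and the iAs panel has none.

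In lists not plotted, the ASC effect had calls for Cd8a of the T cell markers (2.20, adjusted p = 0.0381), Mmp9 of the neutrophil markers (-1.25, adjusted p = 0.00519) and Krt8.

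For each of the 10 genes the most similar genes, at most 3, were listed by Pearson's r of log2 CPM over the 12 tumors. The values describe these tumors, carry the differences between tumors with and without ASC, and have no test. Tgm2 was closest to Ly6a (r = 0.98), Fcgr4 (0.97) and H2-Q1 (0.97), and Tnf to Tnfrsf1b, the gene of a TNF receptor (0.96), Slc31a2 (0.95) and Unc93b1 (0.94). Cd163 was closest to Col14a1 (0.97), Galnt16 (0.96) and Svep1 (0.96), the first a collagen of connective tissue, and Mrc1 to F13a1 (0.93), Abca1 (0.91) and Scara5 (0.91). Retnla was closest to Sh2d4a (0.94), Fmo1 (0.92) and Stard7 (0.92). Nos2 was closest to Gstm4 (0.95) and Acvrl1 (0.92). For Il6 the closest were Plekhg1 (0.92), Padi4 (0.92) and Ptx3 (0.89), and for Chil3 they were Tox2 (0.90), Mcoln2 (0.89) and Gm20705 (0.88). Arg1 was closest to Mybpc3 (0.88), AC132288.2 (0.87) and Mapk13 (0.85), and Il1b to Gm37549 (0.91), Gm48226 (0.89) and Tpm3-rs7 (0.85). Of these, Gm37549, Mybpc3 and AC132288.2 had mean levels of only 0.118, 0.197 and 0.157 CPM. Among the 10 genes themselves, Tnf with Tgm2 (0.86), Cd163 with Retnla (0.86) and Mrc1 with Cd163 (0.83) were the closest pairs, and the lowest value was that of Il1b with Il6 (-0.38).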

How the data were processed

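The authors deposited 1 table of raw gene counts for the 12 tumors. Per the submitters' notes and the study's methods, stranded mRNA libraries were sequenced as read pairs, trimmed with cutadapt 1.1.0, aligned with HISAT2 2.0 and assembled with StringTie 1.3.4. The genome build and the step that made the counts are not given in the sources used here, and low counts fell more often on multiples of 4. Genes were filtered by group (filterByExpr), scaled by TMM and tested with edgeR 4.0.16 (R 4.3.3, quasi-likelihood F test, 4 group means) over all 20818 genes, with Benjamini-Hochberg adjustment in each of 8 comparisons. Log2 CPM used a prior count of 2, and exon lengths came from GENCODE M21. All 10 genes are given in every tumor and against Control, in the other comparisons at an unadjusted p under 0.05, and Chil3 in ASC_As300 against ASC and Tgm2 throughout were added after their values were seen. Other lists give called genes, at most 5, or the 2 smallest p-values. Il4, Il4ra, Adgre1, Mertk, Retn, Arg2 and further values of named genes were added likewise. Alternatives were DESeq2 1.42.0, its size factors, other filters, no minimum fold, the compared groups alone, the replicate number as a block, counts divided by 4, the macrophage marker score as a covariate, and each tumor left out. Scripts were tested on simulated data. The genes and lists were chosen with earlier results of these data known. No pair of tumors shared more than 2.20% equal counts. The p-values rest on the spread within groups between tumors of separate mice. That spread was estimated for each gene from all 12 tumors in 1 fit and moderated across genes. Some items are not reported here.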

Additional observations from a re-analysis of the deposited data

How the results depend on the processing

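Of the recomputed counts of called genes among the 10, 151 stayed within 1.5 times and 14 moved, and of the recomputed log2 fold changes 771 kept direction and call, 27 changed sign, 8 gained and 7 lost a call. With the macrophage marker score as a covariate the number called was 0 in ASC, 0 in ASC_As300, 1 in As300 (Retnla) against Control, 0 in ASC_As300 against As300 and 0 for the ASC effect. In the same fits and order 22, 31, 446, 53 and 61 of all genes were called, against 150, 168, 220, 178 and 301 without the covariate. The score separated the tumors with ASC from those without, so its part and that of ASC cannot be told apart. DESeq2 called 3 in ASC_As300 against Control (Il1b, Tnf and Tgm2) and 2 for the ASC effect (Tnf and Tgm2), beside 1.15% and 1.41% of the 33928 genes with any count. The main edgeR shares are of 20818 genes, so that the shares of the 2 methods have different bases. The replicate number as a block gave 1 in As300 (Retnla, -2.12, adjusted p = 0.0411) and 2 in ASC_As300 (Retnla, -1.93, adjusted p = 0.0305, and Tgm2), beside 0.937% and 0.745% of all genes, and changed no other call among the 10. Over all genes, correlations of log2 CPM after removal of group means overlapped between tumors with the same and with different numbers. The 18 same-number pairs gave -0.124 to 0.172 (median 0.027, 2 above 0.1), and the 36 others -0.222 to 0.246 (median -0.014, 6 above 0.1). These correlations do not decide whether the number matters for single genes. With the block the SE of Retnla was 0.35 in As300 and in ASC_As300, against 0.73 in both without it. Leaving out 1 tumor at a time, the number called was 0 to 1 in ASC_As300 against As300 and 1 to 2 for the ASC effect. Over all genes it was 105 (without Control replicate 3) to 355 (without ASC replicate 1) in ASC, 0 to 399 in As300, 90 to 203 in ASC_As300, 95 to 277 in ASC_As300 against As300 and 244 to 425 for the ASC effect. Tgm2 then ranged from 0.72 to 0.87 in ASC, 0.84 to 0.99 in ASC_As300 against Control, 0.68 to 0.90 in ASC_As300 against As300 and 0.73 to 0.85 for the ASC effect. The cause of each change was not tested.

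The sign changes were in estimates that were called neither in the main fit nor in the alternative. Of them, Nos2 for the ASC effect had an unadjusted p of 0.0486 in the main edgeR test. Cd163 in ASC had one of 0.035 in the edgeR test with the covariate. In ASC against Control the covariate gave Nos2 -0.068, Il1b -0.018, Il6 -0.00284, Arg1 -0.48 and Cd163 -1.85, and the block gave Cd163 -0.044. In ASC_As300 it gave Arg1 -0.063 and Chil3 -0.068, and for the ASC effect Nos2 -0.13. In As300 a minimum of 10 counts in every tumor gave Chil3 0.000517. Leaving out 1 tumor gave, in ASC, Arg1 -0.18 to 0.31, Mrc1 -0.34 to 0.17 and Cd163 -0.85 to 0.59. In As300 it gave Nos2 -0.40 to 0.77, Tnf -0.24 to 0.51, Il6 -1.46 to 0.38, Arg1 -0.083 to 0.42 and Chil3 -0.70 to 0.38, and in ASC_As300 Il6 -0.63 to 0.012. Il6 had the fewest counts, 11 to 63 per tumor, and counting error was not separated from the spread between tumors.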
